A study of Mus musculus with 28 samples.

Results

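The 10 mouse genes Fkbp1a, Fkbp1b, Fkbp2, Fkbp3, Fkbp4, Fkbp5, Fkbp8, Fkbp9, Fkbp10 and Fkbp11, which encode FK506-binding proteins, were followed across 28 RNA libraries from sorted lung cells. They were taken by name, and all 10 were found among the 19375 genes with a value in every library. The libraries came from C57BL/6 wild-type mice aged 8 weeks. The cells were sorted, per the labels, as type 2 and type 1 alveolar epithelial cells (AEC2, AEC1), basophils and group 2 innate lymphoid cells (ILC2). Mice of the papain + FK506 groups received intranasal papain, a plant protease that provokes allergic airway inflammation, at 50 µg per day and intraperitoneal FK506 (tacrolimus) in methyl cellulose at 0.2 mg per day. FK506 was given on 3 days in a row, paused for 2 days, and given for 3 days more, together with the papain. The papain groups received papain alone, and the untreated groups neither agent. A group given FK506 or its vehicle without papain was not analysed here. AEC2 and AEC1 had 2 libraries in each treatment and ILC2 had 3. Basophils had 3 papain + FK506 libraries, 3 papain libraries and 1 untreated library, whose label names 2 controls. Nothing in the labels says whether replicates came from separate mice, so p-values measure only the spread between these libraries, which may be technical.

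FK506-binding proteins are peptidyl-prolyl isomerases, enzymes that turn the peptide bond before proline and help other proteins fold. The small cytosolic member FKBP12, the product of Fkbp1a, forms with FK506 the complex that inhibits calcineurin, the phosphatase that activates NFAT transcription factors in lymphoid and myeloid cells. Larger members carry further domains: some assist HSP90 in the maturation of steroid receptors, and others sit in the endoplasmic reticulum, where they act on secreted proteins such as collagen. The libraries measured messenger RNA, so they hold no value for the proteins or for FK506 bound to them.

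The closest relatives in the family are Fkbp1a and Fkbp1b, whose products both bind FK506. Since the libraries hold very different amounts of them, the start of each coding sequence is shown, from GENCODE M21 transcripts on GRCm38. Bases 1 to 120 of the coding strand are given 5′ to 3′, with capitals at the 25 bases that differ between the genes.
Fkbp1a: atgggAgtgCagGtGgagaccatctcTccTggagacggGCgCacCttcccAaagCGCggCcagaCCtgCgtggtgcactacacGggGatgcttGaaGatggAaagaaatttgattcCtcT
Fkbp1b: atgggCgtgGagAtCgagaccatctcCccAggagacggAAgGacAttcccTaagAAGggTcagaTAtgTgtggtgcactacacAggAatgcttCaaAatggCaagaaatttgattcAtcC
Both coding sequences were 327 bases long and identical at 74.9% of positions, with 82 differing bases. Fkbp1a lies at chr2:151542483-151561692 on the plus strand and Fkbp1b at chr12:4833174-4841591 on the minus strand. QuantSeq libraries are read from the 3′ ends of transcripts. In the last 500 bases of their coding transcripts, neither gene shared any stretch of 50 bases with another gene. Among the other members only Fkbp8 did (27 of 904 stretches, 2.99%). On the same build, Fkbp4 lies at chr6:128429735-128438677, Fkbp5 at chr17:28399094-28517527 and Fkbp11 at chr15:98724366-98728198, all on the minus strand, and Fkbp10 at chr11:100415697-100424824 on the plus strand.

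The deposited values are reads per gene scaled by the authors (CPM), with sums that differ between the tables. They were not divided by gene length here, because the kit counts transcript ends. Per the tables, 1 CPM was worth about 1 read in the AEC libraries, which held about 847100 to 974500 reads (AEC1) and 1206500 to 1333400 reads (AEC2, 5 libraries). Depth is approximate for basophils (2078000 to 3123800 reads) and unknown for ILC2. Even Gapdh, a gene of glycolysis that all cells use, had a listed value of 0 in 19 of 28 libraries, so a 0 is read here as a listing and not as absence. AEC2 untreated replicate 2 and AEC2 papain replicate 2 were nearly the same library. Their log2(CPM + 2) values correlated at r = 0.994 across genes, against 0.620 to 0.724 in the other 14 AEC2 pairs, although their counts still differed by more than sampling noise (chi-square per degree of freedom 2.42, against at least 46.0 in the other pairs). They were kept as 2 libraries, and AEC2 results are given with and without both. AEC2 libraries were rich in their own markers (115703 to 135774 CPM summed over 10 genes, Sftpc 32887.2 to 61276 CPM). AEC1 libraries held 821.1 to 1141.5 CPM of 10 AEC1 markers, less than the 2127 to 4857.1 CPM in AEC2 libraries, beside 10307 to 27277.6 CPM of 12 fibroblast and smooth muscle markers and 1415.5 to 5069.5 CPM of 5 mesothelial markers. In basophil libraries 6 to 9 of 9 basophil markers were listed at 0, Mcpt8 and Fcer1a in all 7, and 14 macrophage, monocyte and dendritic markers summed to 3303.7 to 11706.3 CPM. AEC1 and basophil are therefore used as the names of the sorts. The basophil untreated library had 2002 genes above 0. In ILC2 papain + FK506 replicate 3, the 11 ILC2 markers summed to 85 CPM (7 at 0) and the macrophage list to 7295 CPM, with none of its 14 genes at 0. ILC2 untreated replicate 3 held 37948 CPM of 6 airway markers. In all 3 ILC2 replicate 3 libraries, 10 AEC2 markers summed to 3760 CPM (papain + FK506), 6632 CPM (papain) and 4695 CPM (untreated), and to at most 565 CPM in the other ILC2 libraries. In bulk samples, fewer cells of a type and less RNA per cell cannot be told apart.

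Of the family, only Fkbp1a was above 0 in all 28 libraries. Fkbp4 and Fkbp8 were above 0 in 26, Fkbp2 in 25, Fkbp3 in 21 and Fkbp5 in 20. The sparse members were Fkbp9 and Fkbp10 (13 libraries each), Fkbp11 (8) and Fkbp1b (7). Fkbp1a was the highest member in 1 of 6 AEC2, 5 of 6 AEC1, 7 of 7 basophil and 5 of 9 ILC2 libraries. Fkbp4 was highest in 3 AEC2, 1 AEC1 and 3 ILC2 libraries, and Fkbp2 in 2 AEC2 libraries. Summed over the 10 genes, the median level was 759.55 CPM in AEC2, 876.45 CPM in AEC1, 597.2 CPM in basophils and 519 CPM in ILC2. Fkbp1a made up a median 25.5% of that sum in AEC2, 38.2% in AEC1, 45.2% in basophils and 27.2% in ILC2. AEC values summed to 986819 to 992526 per library, while basophil and ILC2 values summed to 612434 to 672357 and 519768 to 636598, so levels set across these tables rest on separate normalizations.

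**Figure D1:**
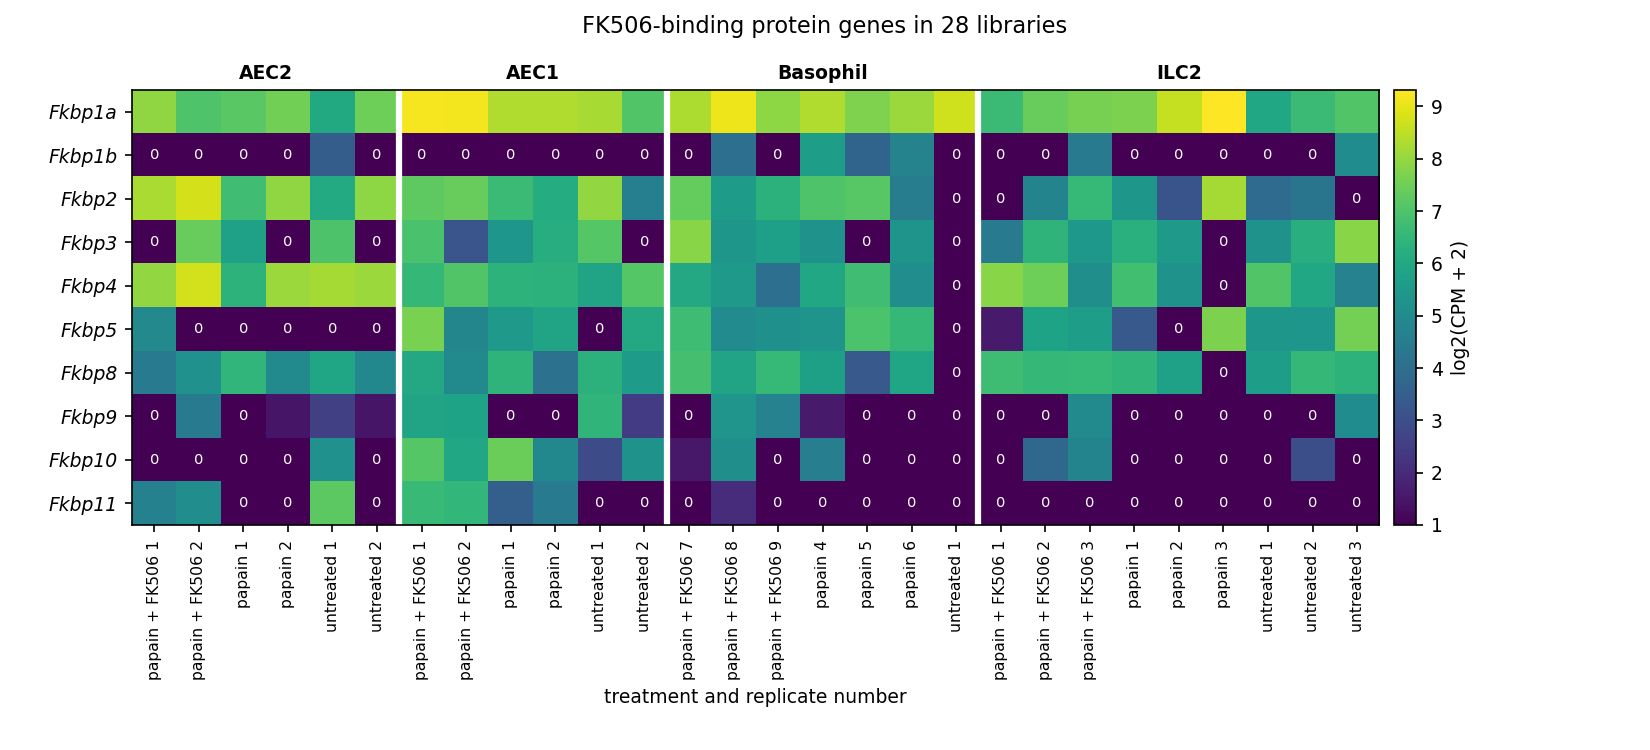
Levels of the 10 genes (rows) in 28 libraries (columns, by cell type, treatment and replicate number), coloured by log2(CPM + 2), with cells listed at 0 marked. Fkbp1a is above 0 throughout, while Fkbp1b is listed at 0 in 21 libraries and Fkbp11 in 20.

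Fkbp1a, the gene of the main FK506 target, was ordered by median level as AEC1 (316 CPM), basophil (314 CPM), ILC2 (165 CPM) and AEC2 (162 CPM), with neighbours in this order overlapping widely. Its full ranges were 64 to 242.5 CPM in AEC2, 131.1 to 584.6 CPM in AEC1, 206.5 to 546.8 CPM in basophils and 61 to 635 CPM in ILC2. Among genes above 0 in the same library it stood at a median percentile of 85.7 in AEC2, 95.1 in AEC1, 94.4 in basophils and 91.8 in ILC2. In the AEC libraries with recoverable reads, 154 to 323 reads (AEC2) and 114 to 501 reads (AEC1) lay behind a value.

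In ILC2, Fkbp1a was at 100, 165 and 193 CPM with papain + FK506, 201, 379 and 635 CPM with papain, and 61, 99 and 132 CPM in untreated mice. All 3 papain libraries lay above all libraries of both other groups, whose ranges overlapped each other. The papain minus untreated log2 difference was 1.68 ± 0.78 (SE, n = 3 each; 95% interval 0.11 to 3.24), and it did not pass limma's test (adjusted p = 0.985). The papain + FK506 minus papain log2 difference was -1.21 ± 0.78 (SE, n = 3 each; 95% interval -2.78 to 0.36), which did not pass limma's test either (adjusted p = 0.910). All 3 replicate 3 libraries held markers of other cells, papain replicate 3 with the 635 CPM among them. Without papain replicate 3 the differences were 1.66 and -1.19, and without untreated 3 and papain + FK506 3 they were 1.58 and -1.27. With all 3 left out, both papain values again lay above the other 4, and papain + FK506 minus papain was -1.26. Papain + FK506 minus untreated was 0.47 ± 0.78 (limma adjusted p = 0.999). The pairs of groups of Fkbp1a given here with unadjusted p above 0.05 were chosen after their values were seen. Of the 6271 genes tested in ILC2, 4.31% were higher without overlap in papain than in untreated libraries, and 2.79% were lower without overlap in papain + FK506 than in papain libraries.

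In AEC1, Fkbp1a was at 584.6 and 574.4 CPM with papain + FK506, 315.5 and 316.8 CPM with papain, and 296.3 and 131.1 CPM in untreated mice. The 3 groups did not overlap. In these comparisons groups of 2 did not overlap for 32.5% (papain + FK506 against papain), 33.4% (papain against untreated) and 39.3% (papain + FK506 against untreated) of the 8178 genes tested. The log2 difference was 1.41 ± 0.50 for papain + FK506 minus untreated (limma adjusted p = 0.342), 0.72 ± 0.50 for papain + FK506 minus papain (adjusted p = 0.902) and 0.69 ± 0.50 for papain minus untreated (adjusted p = 0.740), all SE with n = 2. None passed. The fibroblast and smooth muscle markers, which these libraries hold, summed to 27277.6 and 19279.6 CPM with papain + FK506, 26862.2 and 16926.3 CPM with papain and 12050.5 and 10307 CPM in untreated mice, so papain + FK506 and papain overlapped. The 5 mesothelial markers separated all 3 groups in the opposite order to Fkbp1a, at 1415.5 and 1979.3 CPM with papain + FK506, 2291.3 and 3328.6 CPM with papain and 5069.5 and 4057.5 CPM in untreated mice. The 10 AEC2 markers were at 1962.8 and 4475.4 CPM with papain + FK506, 2349.7 and 1491.5 CPM with papain and 6305.2 and 9734.2 CPM in untreated mice. The part of these cells in the Fkbp1a values was not tested.

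In AEC2, Fkbp1a was at 242.5 and 127.6 CPM with papain + FK506, 145.4 and 186.5 CPM with papain, and 64 and 177.7 CPM in untreated mice, with all groups overlapping. In basophils it was at 314.2, 546.8 and 235.6 CPM with papain + FK506, 315.9, 206.5 and 263.5 CPM with papain, and 417.6 CPM in the untreated library, where it was the only member above 0. The treated basophil groups overlapped.

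**Figure D2:**
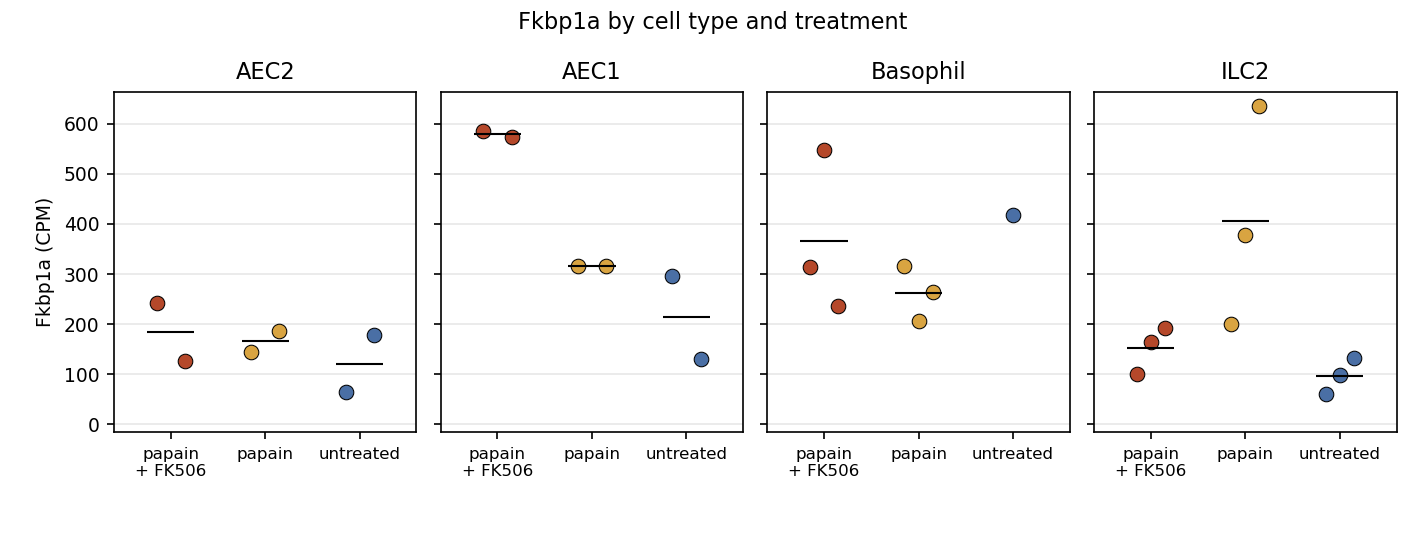
Fkbp1a (CPM) in each library, by cell type and treatment, with points for libraries and bars for group means. The 3 ILC2 papain libraries (201 to 635 CPM) lie above the other ILC2 libraries, and the AEC1 papain + FK506 libraries (584.6 and 574.4 CPM) above the other AEC1 libraries.

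Fkbp1b encodes FKBP12.6, which is best known for binding ryanodine receptors, the calcium release channels of muscle. Its highest values were 49 CPM in basophils (papain replicate 4) and 31 CPM in ILC2 (untreated replicate 3), and all 6 AEC1 libraries listed it at 0. In basophils it was at 0, 14.6 and 0 CPM with papain + FK506 and at 49, 10.7 and 24.2 CPM with papain. The papain libraries were all above 0, but 1 papain + FK506 library lay within their range. Fkbp1b met the filter of 10 CPM in 3 basophil libraries only with the papain libraries, where it is high. Its p was the smallest of any member in papain + FK506 against papain in basophils, with a difference of -2.71 ± 1.57 log2 units (SE, n = 3 each, limma adjusted p = 0.824). No member passed there, and 0% of the 5853 genes did. At an unadjusted p under 0.05, 6.05% of the genes passed.

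Fkbp4 and Fkbp5 encode FKBP52 and FKBP51, co-chaperones that bind HSP90 and the glucocorticoid receptor. FKBP52 helps the receptor to act and FKBP51 restrains it, and Fkbp5 is itself a well-known target of glucocorticoids. In AEC2, Fkbp4 was at 250.7 and 429.2 CPM with papain + FK506, 80.8 and 264.5 CPM with papain, and 290 and 264.7 CPM in untreated mice. It exceeded 250 CPM in 5 of 6 AEC2 libraries and 138 CPM in no AEC1 library. In AEC1 it was at 91 and 129.8 CPM with papain + FK506, 81.5 and 78.9 CPM with papain, and 56.1 and 138 CPM in untreated mice. Over all treatments, Fkbp4 averaged 263 ± 111 CPM in AEC2 and 95.9 ± 31.7 CPM in AEC1 (SD, n = 6 each), and AEC2 minus AEC1 was 1.45 ± 0.48 log2 units (SE), short of the threshold in limma's test (adjusted p = 0.0702).

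Values of Fkbp5 ran the other way between these cells. It was listed at 0 in 5 of 6 AEC2 libraries, and reached 28.4 CPM in papain + FK506 replicate 1. In AEC1 it was at 196 and 26 CPM with papain + FK506, 42.4 and 55.4 CPM with papain, and 0 and 62.1 CPM in untreated mice. The AEC2 minus AEC1 log2 difference was -3.44 ± 1.13 (SE, n = 6 each), and it too missed the threshold (limma adjusted p = 0.0702). Fkbp5 met the filter of 10 CPM in 2 libraries only through AEC1, where it is high. Leaving out both near-identical AEC2 libraries gave 1.18 for Fkbp4 and -3.46 for Fkbp5. Of 20 alternatives, 19 left each gene short of the threshold, as in the main fit. Fkbp4 passed only without AEC2 papain replicate 1, and Fkbp5 only without AEC1 untreated replicate 1. Each of these fits left 1 library in a group.

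In basophils, Fkbp5 was at 105.2, 30.3 and 34.5 CPM with papain + FK506, 37.5, 123.4 and 90.7 CPM with papain, and 0 in the untreated library. In ILC2 it was at 1, 55 and 49 CPM with papain + FK506, 8, 0 and 203 CPM with papain, and 40, 39 and 190 CPM in untreated mice. The highest ILC2 values, 203 and 190 CPM, both came from replicate 3, whose tables carry the file code of the basophil tables. In that replicate, 15 glucocorticoid receptor target genes summed to 4951 CPM with papain + FK506, 3433 CPM with papain and 3994 CPM in untreated mice, while ILC2 replicates 1 and 2 ranged over 1407 to 1716 CPM. Fkbp5 is not on that list. The replicate 3 libraries also held markers of other cells, with up to 6632 CPM of AEC2 markers. In AEC2 libraries the target list summed to 3605 to 6529 CPM. The part of the file code and of other cells in the values of Fkbp5 and of the list was not tested.

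Fkbp5 averaged 60.2 CPM in basophils and 65 CPM in ILC2. Basophil minus ILC2, fitted with the file code and with equal weight for each treatment, was -2.44 ± 1.17 log2 units (SE, n = 7 and 9, limma adjusted p = 0.418). In that fit the single untreated basophil library, with Fkbp5 at 0, weighs as much as 3 treated ones, and the ILC2 libraries of the other file code add only to the spread. The difference was -0.51 with no file-code term, -1.41 without ILC2 papain replicate 3 and -4.47 without untreated 3 and papain + FK506 3 of ILC2. No member passed in that comparison, where 1.28% of 8409 genes did (11% at an unadjusted p under 0.05). Against ILC2 replicate 3 alone, within 1 file code, Fkbp5 passed (limma adjusted p = 0.0476), as did 6.12% of 6810 genes. That fit has 1 ILC2 library in each treatment, so its spread comes from the treated basophil libraries alone, and all 3 of these ILC2 libraries hold markers of other cells.

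**Figure D3:**
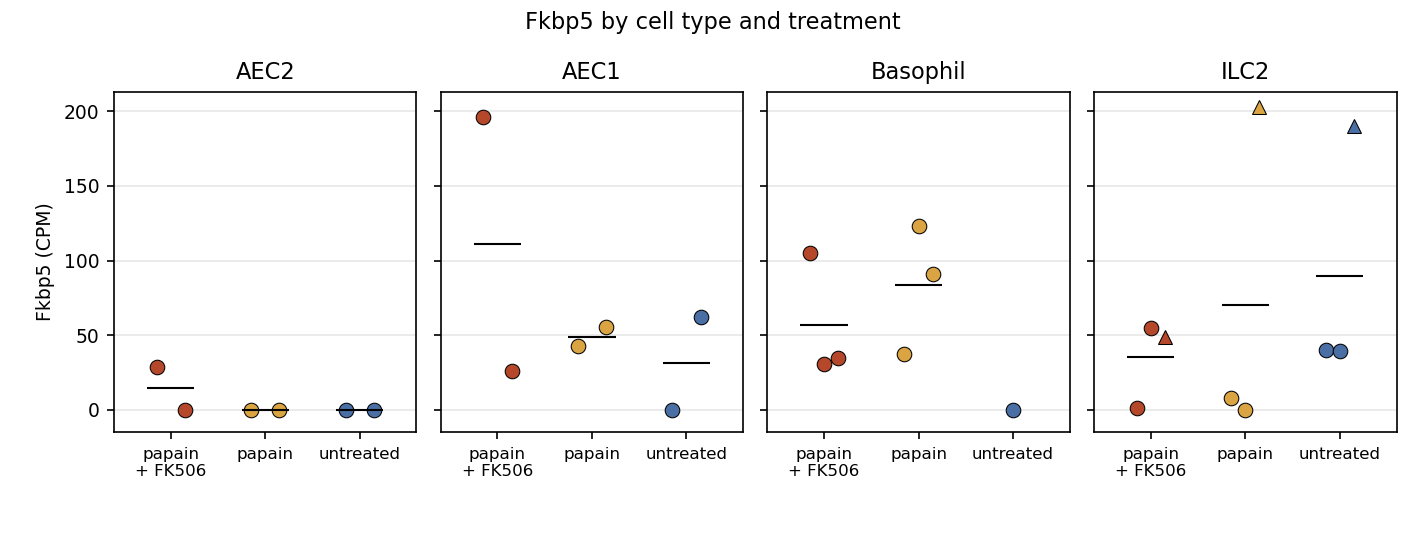
Fkbp5 (CPM) in each library by cell type and treatment, with bars for group means and triangles for ILC2 replicate 3, which carries another file code than ILC2 replicates 1 and 2. Of the AEC2 libraries 1 is above 0 (28.4 CPM), and the ILC2 values of 203 and 190 CPM are both triangles.

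Fkbp4 in ILC2 was at 229, 176 and 33 CPM with papain + FK506, 109, 36 and 0 CPM with papain, and 130, 60 and 24 CPM in untreated mice. It had the smallest p among the members for papain + FK506 minus papain, at 2.38 log2 units (95% interval -0.04 to 4.80, n = 3 each), with overlapping groups and no pass in limma's test (adjusted p = 0.910). In basophils it was at 62.4, 43.1 and 14.6 CPM with papain + FK506, 60.2, 106.6 and 32 CPM with papain, and 0 in the untreated library.

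Fkbp2, Fkbp9, Fkbp10 and Fkbp11 encode the members of the endoplasmic reticulum. FKBP65, the product of Fkbp10, is a collagen chaperone whose loss causes brittle bones in humans. Fkbp10 was listed at 0 in 5 of 6 AEC2 libraries, with 35 CPM in untreated replicate 1, and was above 0 in all 6 AEC1 libraries. In AEC1 it was at 138.9 and 60.2 CPM with papain + FK506, 173.6 and 27.7 CPM with papain, and 5.6 and 36.8 CPM in untreated mice. It was the only member to pass between AEC2 and AEC1. It met the filter of 10 CPM in 2 libraries only through AEC1, where it is high. Its mean was 5.83 ± 14.3 CPM in AEC2 and 73.8 ± 67.1 CPM in AEC1 (SD, n = 6 each), and AEC2 minus AEC1 was -3.83 ± 1.00 log2 units (SE, limma adjusted p = 0.0284). That is 1 of the 9 members tested, while of all 9841 genes tested 12.7% passed and 8.25% passed as lower in AEC2.

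The Fkbp10 call was not firm. It was lost with both near-identical AEC2 libraries left out (-3.11, limma adjusted p = 0.0712) and when any 1 of 9 libraries was left out. These were AEC2 untreated 2, both AEC2 papain, both AEC2 papain + FK506, AEC1 untreated 2, AEC1 papain 1 and both AEC1 papain + FK506 libraries, with an adjusted p of up to 0.0692.

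Genes of collagen and its modification differed between the same libraries. Of 16 such genes, all tested, 10 were lower in AEC2 and 0 higher, with a median log2 difference of -3.52, against -0.45 over all genes tested. The collagen genes Col3a1 (0.117 CPM in AEC2, 2593 CPM in AEC1, limma adjusted p = 7.78e-07) and Col1a1 (0.283 and 2489 CPM, adjusted p = 7.78e-07) led the list. Of the 10, Plod1, P3h3 and P3h4, which encode collagen-modifying proteins, lost their call under at least 1 alternative. Eln, the elastin gene, and Col5a1 were listed at 0 in all AEC2 libraries and averaged 1053 and 446.5 CPM in AEC1. Col1a1, Col3a1 and Eln are also among the fibroblast and smooth muscle markers that mark the AEC1 libraries, so the levels of the list and of those markers share genes. The 2 AEC1 libraries with the most Fkbp10, at 173.6 and 138.9 CPM, had the highest collagen list sums, 12480.5 and 10734.4 CPM. The next, at 60.2 CPM, had 7314.2 CPM, and the remaining 3, at 36.8, 27.7 and 5.6 CPM, had 3020.3, 5753.3 and 5262.6 CPM. The part of fibroblast RNA in the Fkbp10 values was not tested.

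**Figure D4:**
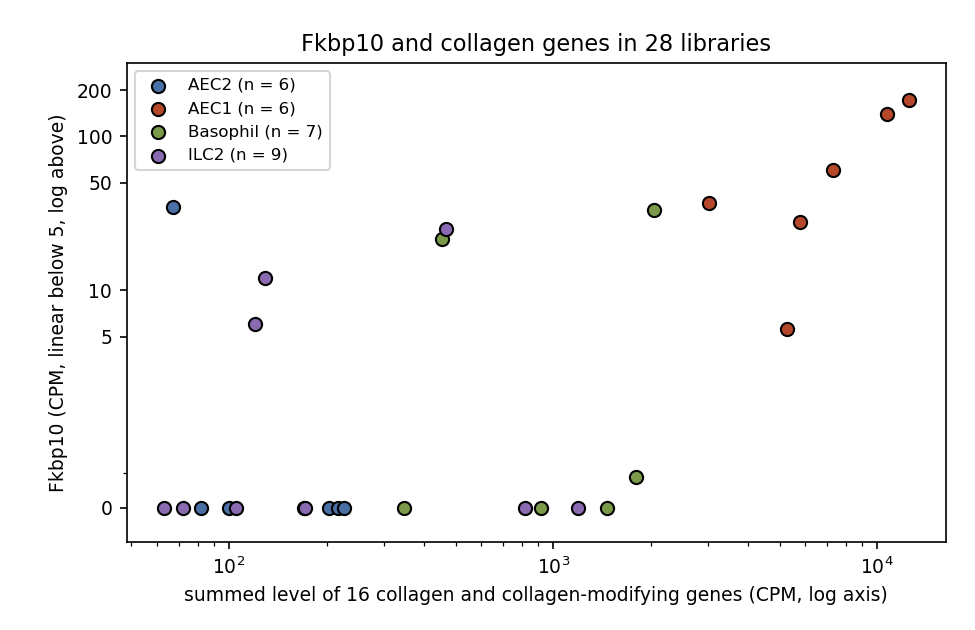
Fkbp10 (CPM, linear below 5 and log above) against the summed level of 16 collagen and collagen-modifying genes (CPM, log axis) in 28 libraries, coloured by cell type. AEC1 libraries lie at the right, with list sums of 3020.3 to 12480.5 CPM, and the AEC2 sums are 67 to 226.7 CPM.

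Fkbp2, whose product FKBP13 resides in the endoplasmic reticulum lumen, was at 307.6 and 437.5 CPM with papain + FK506 in AEC2, 105.7 and 240.7 CPM with papain, and 66 and 237.8 CPM in untreated mice. Both papain + FK506 libraries lay above the other 4. For papain + FK506 minus untreated the log2 difference was 1.39 ± 0.81 (SE, n = 2 each, limma adjusted p = 0.919), the smallest p of the 6 members tested there, in a comparison where 0% of 6719 genes passed. With both near-identical libraries left out it was 2.16 (adjusted p = 0.372, limma). Groups did not overlap for 29.9% of the genes there, and for 27.4% in papain + FK506 against papain. In AEC1 it was at 151.7 and 165.1 CPM with papain + FK506, 100.6 and 68.7 CPM with papain, and 249.2 and 21.9 CPM in untreated mice, so the untreated libraries spanned the treated ones. In basophils it was at 160.2, 46.8 and 79.9 CPM with papain + FK506, 127.4, 141.9 and 20.8 CPM with papain, and 0 in the untreated library. In ILC2 it was at 0, 25 and 92 CPM with papain + FK506, 40, 7 and 289 CPM with papain, and 13, 17 and 0 CPM in untreated mice, with papain replicate 3 far above the others.

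Fkbp11, whose product FKBP19 is known from secretory cells, was at 94.5 and 88.5 CPM with papain + FK506 in AEC1, 9.5 and 19.5 CPM with papain, and 0 in both untreated libraries. The 3 groups did not overlap. For papain + FK506 against untreated it had the smallest p among the AEC1 pairs of the family, and still did not pass limma's test (adjusted p = 0.314), nor did papain against untreated (0.639). In AEC1 it met the filter of 10 CPM in 2 libraries only through papain + FK506, where it is high. No fold is given, as untreated was listed at 0. In AEC2 it was at 23.2 and 31.5 CPM with papain + FK506, at 0 in both papain libraries, and at 146 and 0 CPM in untreated mice. Among the members, Fkbp11 had the smallest p for the papain effect in AEC2 minus that in AEC1 (limma adjusted p = 0.972, and 0.265 without both near-identical libraries). No member passed this test of the difference, and 0% of 9841 genes did (4.61% at an unadjusted p under 0.05, and 14 genes with edgeR on recovered reads). All 9 ILC2 libraries listed Fkbp11 at 0, and 1 basophil library was above 0, at 2.2 CPM.

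Fkbp9, which encodes a multi-domain member of the endoplasmic reticulum, was at 56 and 54.3 CPM with papain + FK506 in AEC1, 0 in both papain libraries, and 84.2 and 3.5 CPM in untreated mice. The papain libraries were the low ones, and papain + FK506 lay within the untreated range (papain + FK506 against papain, limma adjusted p = 0.782). In AEC2 it stayed between 0 and 19.1 CPM, and the highest values elsewhere were 38 CPM in basophils and 31 CPM in ILC2. Fkbp9 also had the smallest p for the papain + FK506 minus papain effect in AEC2 minus that in AEC1 (limma adjusted p = 0.950). No member passed there and 0% of 9841 genes did (5.75% at an unadjusted p under 0.05, and 20 genes with edgeR). In all, 5 of 9 tested members (Fkbp1a, Fkbp2, Fkbp4, Fkbp9 and Fkbp11) were higher without overlap in papain + FK506 than in papain AEC1 libraries and 0 were lower, against 19.5% and 12.9% of all genes. Of these members, Fkbp9 and Fkbp11 passed the filter of 10 CPM in 2 libraries only through the papain + FK506 libraries, where they are high. The mesothelial markers separate the same groups, with papain + FK506 (1415.5 and 1979.3 CPM) below papain (2291.3 and 3328.6 CPM), and their part in the values of these members was not tested. The family summed to 1494.7 and 1134.9 CPM with papain + FK506, 844.9 and 653.1 CPM with papain, and 908 and 438.3 CPM in untreated AEC1. None of the 9 passed the test there, and 0% of 8178 genes did (6.07% at an unadjusted p under 0.05, and 0 genes with edgeR on recovered reads).

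Fkbp3 and Fkbp8 encode FKBP25, a nuclear protein that binds nucleic acids, and FKBP38, which is anchored in the mitochondrial membrane and binds BCL-2. Fkbp3 spread widely within groups. In AEC2 it was at 0 and 165.7 CPM with papain + FK506, 52.1 and 0 CPM with papain, and 126 and 0 CPM in untreated mice, so each treatment had 1 library at 0. In AEC1 it was at 119 and 7.1 CPM with papain + FK506, 39.2 and 70.7 CPM with papain, and 138 and 0 CPM in untreated mice. In basophils it was at 225.2, 40.6 and 50.3 CPM with papain + FK506, 36.2, 0 and 37.5 CPM with papain, and 0 in the untreated library. Papain + FK506 lay above papain in basophils without overlap, as did 5.77% of genes. Markers of other cells separated the same 2 groups. The 12 fibroblast and smooth muscle markers summed to 4010.1, 4102.9 and 2853.7 CPM with papain + FK506 and to 1134.9, 419.7 and 185.5 CPM with papain, and the 10 AEC2 markers to 10813, 8419.1 and 2383 CPM with papain + FK506 and to 1744, 868 and 1117.5 CPM with papain. Their part in the basophil values of Fkbp3 and the other members was not tested. In ILC2 it was at 19, 83 and 41 CPM with papain + FK506, 76, 43 and 0 CPM with papain, and 37, 73 and 225 CPM in untreated mice.

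Fkbp8 ranged from 0 to 113.5 CPM over all libraries, with a median of 56.4 CPM. In ILC2 it was at 105, 91 and 92 CPM with papain + FK506, 85, 52 and 0 CPM with papain, and 49, 91 and 81 CPM in untreated mice. Papain + FK506 lay above papain without overlap, at 2.12 ± 1.23 log2 units (SE, n = 3 each, limma adjusted p = 0.910), as did 4.05% of all genes. This log2 difference was given after its values were seen, and it was 0.41 without papain replicate 3, the library at 0. In basophils it was at 113.5, 55.9 and 92.8 CPM with papain + FK506, 50.6, 8.1 and 56.9 CPM with papain, and 0 in the untreated library. Its treatment groups overlapped in AEC2 (20.2 to 86.3 CPM, median 32.2 CPM) and in AEC1 (15.4 to 82.6 CPM, median 53.95 CPM).

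**Figure D5:**
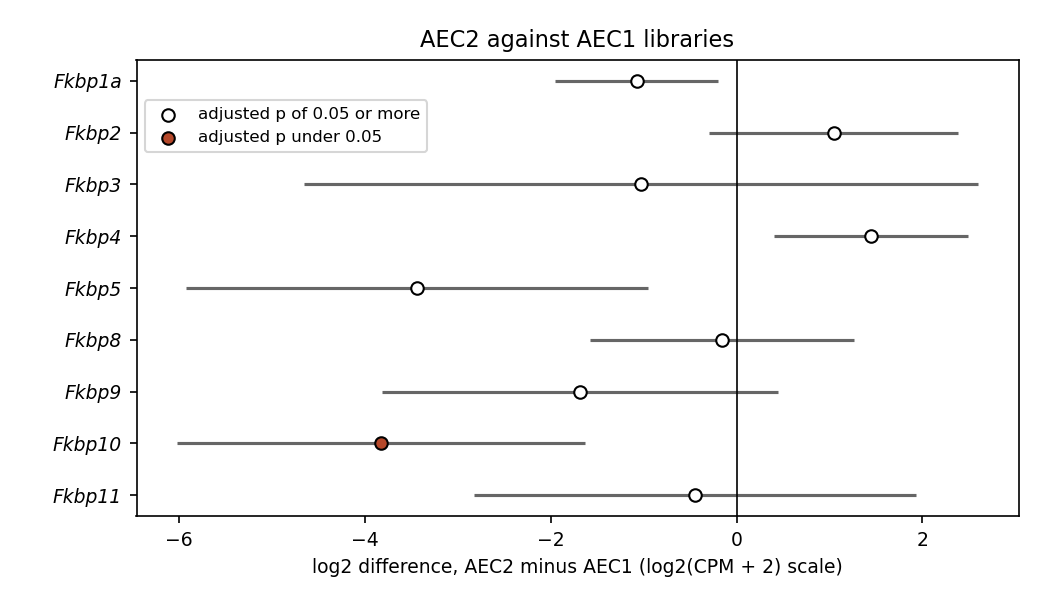
Log2 difference, AEC2 minus AEC1, for the 9 members tested, with 95% intervals from limma (log2(CPM + 2) scale, n = 6 libraries each). Fkbp10 alone passes an adjusted p of 0.05, and Fkbp4 (1.45) lies to the right of 0 while Fkbp5 (-3.44) lies to the left.

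Against the single basophil untreated library, treated libraries were higher for most genes tested. Genes needed 10 CPM in 3 basophil libraries, so a gene high only in the untreated library was left out. This selection can raise the medians and the shares called higher. The median log2 difference over all genes was 3.09 for papain + FK506 and 3.05 for papain, and 23.3% and 23.1% of the 5853 genes passed. In papain + FK506 against untreated, 3 of 7 members passed (Fkbp2, limma adjusted p = 0.00635; Fkbp8, 0.0132; Fkbp5, 0.0183), all higher, and 21.1% of genes were called higher. In papain against untreated, 3 of 7 passed (Fkbp2, limma adjusted p = 0.00778; Fkbp5, 0.00860; Fkbp4, 0.0240), all higher, again with 21.1% of genes called higher. In papain + FK506 against untreated, Fkbp4 (adjusted p = 0.0528, limma) and Fkbp3 (0.0678) did not pass, nor did Fkbp8 in papain against untreated (0.0583). All of these were listed at 0 in the untreated library, so no fold is given. They passed the filter only through the treated libraries, where they are high. The untreated library had 2002 genes above 0 where the other basophil libraries had 6401 to 7894. Single libraries moved these calls. Without papain replicate 5, Fkbp4 in papain was no longer called (limma adjusted p = 0.0768), while Fkbp8 in papain (0.0176) and Fkbp3 in papain + FK506 (0.0155) were, and without papain + FK506 replicate 9 Fkbp4 in papain + FK506 was called (0.0262). An effect of treatment and the sparseness of that library cannot be told apart. A comparison without that library could not be made. The lists were called against it as well. In papain + FK506 and in papain alike, 8 of 18 endoplasmic reticulum chaperone genes (P4hb and Sec61b among them), 4 of 10 HSP90-related genes (Hspa8, Hsp90aa1, Cdc37, Dnajb1) and 4 of 12 glucocorticoid receptor targets (Klf9, Lcn2, Cebpd, Per1) were called higher and 0 lower. For papain + FK506 and papain, the list medians were 3.79 and 4.39 (chaperones) and 3.50 and 4.32 (HSP90-related genes). The median of the glucocorticoid targets was 0.355 and 0.679, below the 3.09 and 3.05 over all genes. Of 8 tested genes of the collagen list, which includes Eln, 3 were higher in papain + FK506 (Eln, Col1a2, Col3a1), and in papain 2 were higher (Eln, Col1a2) and 1 lower (Col1a1). Of 6 cyclophilins Ppig was higher in both, and Ppif was lower in papain, and of 5 calcineurin genes Ppp3ca was higher in both. With no filter, Col3a1 in papain + FK506 and Col1a1 and Ppif in papain were no longer called. The call of Dnajb1 in papain was lost with a pseudocount of 5 and without papain replicate 6.

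Between AEC2 and AEC1, where 4.43% of all genes were called higher and 8.25% lower in AEC2, the HSP90 co-chaperone and steroid receptor list had 2 of 11 tested genes lower in AEC2 and 0 higher, Hsp90ab1 (1910 CPM in AEC2, 4343 CPM in AEC1, limma adjusted p = 0.00199) and Hsp90aa1 (411 and 1098 CPM, 0.0171), which encode the HSP90 proteins that FKBP52 and FKBP51 assist. Nr3c1, the glucocorticoid receptor gene, was at a mean of 20.1 CPM in AEC2 and 81.4 CPM in AEC1 (limma adjusted p = 0.145). Of 20 endoplasmic reticulum chaperone genes 2 were lower in AEC2 and 0 higher, Hspa5 (772 CPM in AEC2, 2088 CPM in AEC1) and Hsp90b1 (326 and 918 CPM). Their list medians were -0.60 and -0.96, against -0.45 over all genes.

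Of 15 glucocorticoid receptor targets, 4 were higher in AEC2 (Lcn2, Mt1, Errfi1, Cebpd) and 1 lower (Zbtb16, listed at 0 in all AEC2 libraries, mean 42.4 CPM in AEC1), with a list median of 1.14. Lcn2, which encodes a secreted iron-carrier binder, was at 1162 CPM in AEC2 and 65.5 CPM in AEC1, and Mt1, a metallothionein gene, at 947 and 417 CPM. Of 9 calcineurin genes 1 was lower in AEC2, Ppp3cb (a catalytic subunit, listed at 0 in AEC2 and 29.4 CPM in AEC1), and 0 higher. Of 12 cyclophilins, the isomerases that bind cyclosporin, 1 was lower, Ppil4 (3.97 CPM in AEC2, 65.7 CPM in AEC1), and 0 higher. With both near-identical AEC2 libraries left out, Errfi1 (limma adjusted p = 0.133), Cebpd (0.0963) and Ppp3cb (0.0854) were no longer called, and with edgeR on recovered reads neither were Zbtb16 (adjusted p = 0.0981), Ppil4 (0.160) and Hsp90b1 (0.0553). Errfi1, Cebpd, Ppp3cb and Ppil4 also lost their call when some single libraries were left out.

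In basophils against ILC2, 0.63% of 8409 genes were called higher and 0.654% lower. Of the lists, the higher genes were Calr and Hsp90b1 of 19 endoplasmic reticulum chaperones and Errfi1 of 12 glucocorticoid targets. The lower genes were Klf9 of the same 12, Hspa8 of 13 HSP90-related genes and Ppp3ca, the alpha catalytic subunit of calcineurin, of 8 calcineurin genes. The single untreated basophil library weighs as much as 3 treated ones in this comparison. In basophils, papain minus untreated was 7.63 log2 units for Klf9, 6.84 for Hspa8 and 6.40 for Ppp3ca. The part of that library in these calls was not tested. Ppp3ca averaged 137 CPM in basophils and 210 CPM in ILC2 (file-code fit -3.48 ± 0.83 log2, SE, limma adjusted p = 0.0176). Each of these 6 calls was lost under at least 1 alternative. Without ILC2 papain replicate 3 the adjusted p was 0.174 for Ppp3ca, 0.0849 for Klf9, 0.138 for Errfi1, 0.807 for Hsp90b1 and 0.267 for Calr, and without ILC2 untreated replicate 3 it was 0.229 for Hspa8 (limma). In ILC2, AEC1 and AEC2, the treatment comparisons called 0 genes of any of these lists, and 0 members. In ILC2 0%, 0.0159% and 0% of genes passed (papain against untreated, papain + FK506 against papain, papain + FK506 against untreated), in AEC1 0%, 0% and 0.0245%, and in AEC2 0% in each. At an unadjusted p under 0.05, 3.73%, 4.18% and 3.99% passed in ILC2, 9.31%, 6.07% and 11.7% in AEC1, and 0.223%, 4.23% and 4.57% in AEC2, in the same order. With edgeR on recovered reads, 15, 0 and 29 genes passed in AEC1 and 0, 0 and 0 in AEC2.

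Papain against untreated in AEC2 sets 2 pairs side by side of which 1 is nearly identical, so its values say little about papain. Fkbp4 had the smallest p there (-1.06 ± 0.74 log2, SE, n = 2 each, limma adjusted p = 1) and also for papain + FK506 minus papain (1.16 ± 0.74, adjusted p = 0.909). Without the near-identical libraries, which left 1 papain and 1 untreated library assumed to vary like the rest, these were -2.11 and 2.00 (limma adjusted p = 0.445 and 0.343). The FK506 effect in basophils minus that in ILC2 had its smallest p in Fkbp1b (limma adjusted p = 0.899, with 0% of 8409 genes called and 5.3% at an unadjusted p under 0.05). With the basophil file code alone, where 1 ILC2 library stands for each treatment, 276 of 6810 genes and 0 members were called. For papain + FK506 against untreated in ILC2 the smallest p was that of Fkbp5 (-1.85 log2, 95% interval -4.86 to 1.17, n = 3 each, limma adjusted p = 0.993).

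Between AEC2 and AEC1, Fkbp1a itself was lower in AEC2 by value, at 157 ± 60.4 CPM against 370 ± 177 CPM in AEC1 (SD, n = 6 each), and AEC2 minus AEC1 was -1.08 ± 0.40 log2 units (SE), which did not pass limma's test (adjusted p = 0.0982, and 0.0519 at -1.38 without both near-identical libraries). The highest Pearson correlation of log2(CPM + 2) between any of the 6 members above 0 in at least 14 libraries was 0.68 (Fkbp3 and Fkbp8), followed by 0.52 (Fkbp4 and Fkbp8), and the lowest were -0.51 (Fkbp1a and Fkbp4) and -0.38 (Fkbp1a and Fkbp8). Likeness was ranked over the 5816 genes above 0 in at least 14 libraries, less the members. The most like Fkbp1a were Gas5 (r = 0.73), Fnip1 (0.67) and G3bp1 (0.65), and the most like Fkbp5 were Asap1 (0.87), Map3k3 (0.79) and Crispld2 (0.74). For Fkbp4 they were Smim11 (0.82), Aamp (0.81) and Gtf2i (0.80), for Fkbp2 Hsbp1 (0.86), Nfe2l2 (0.85) and Ndufa4 (0.85), for Fkbp3 Park7, Gpd2 (0.70 each) and Ube2q1 (0.67), and for Fkbp8 Sf3b5 (0.85), Maf1 (0.83) and Pfdn2 (0.82). These are descriptions over libraries that share cell type, table and depth, in which many values are 0.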

How the data were processed

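RNA of 28 libraries was measured with a Lexogen 3′ kit from 10 ng of total RNA, per the labels' protocols. STAR 2.7.0c and featureCounts 1.6.0, with the builds mm10 and GRCm38.p6, are listed without roles, per the submitters' processing notes. The authors deposited CPM for 18 libraries. The 10 other tables (all ILC2 and AEC2 untreated 1) hold whole numbers on the CPM scale and were treated as a score, CPM rounded by the authors. What the values were divided by, and the strand setting, are not given in the sources used here.

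Values were divided by TMM factors (edgeR 4.0.16) and fitted as log2(CPM + 2) with limma 3.58.1 (trended, R 4.3.3), which understates changes of low genes. Genes needed 10 CPM in 2 libraries (AEC) or 3 (ILC2, basophil). Of the members, 9 of 10 were tested in AEC1 and in AEC2 against AEC1, 9 in basophils against ILC2, 6 in ILC2 and in AEC2, and 7 in basophils. A member or list gene can pass this filter only through the group where it is high. All groups of a cell type shared the spread, ILC2 fits had a file-code term, and two-sided p-values were adjusted over all genes (Benjamini-Hochberg). Reads were recovered from CPM steps for 11 AEC libraries and tested with edgeR's quasi-likelihood test. DESeq2 1.42.0 size factors, other pseudocounts (1 and 5), no filter and left-out libraries were alternatives, and the fits were tested on simulated data.

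The members and lists were chosen with earlier results of these data known. A result was given for each member with an unadjusted p under 0.05 in a comparison, or else the smallest p there (a log2 difference, or only the adjusted p where a group was listed at 0), and for the Fkbp1a and Fkbp8 pairs named as chosen later. List genes called were named up to 4 by p. The 3 genes most like a member were named for members above 0 in at least 14 libraries.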

Additional observations from a re-analysis of the deposited data

Results flagged for a closer look

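In 38 groups of a member and a cell type, pooled over treatments, the highest or lowest library was compared with the others by Dixon's criterion, and 11 groups had a library far from the rest. For normally distributed values, chance gives about 1 in 20 such groups. CPM were compared here without logs, so that rate need not hold. Pooling treatments, with many values at 0, makes a single value above 0 stand out.

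In AEC2, untreated replicate 1, whose values are whole numbers, stood apart with 9 CPM of Fkbp1b (all others at 0), 35 CPM of Fkbp10 (all others at 0) and 146 CPM of Fkbp11 (next 31.5 CPM). Also in AEC2, Fkbp5 was at 28.4 CPM in papain + FK506 replicate 1 (all others at 0) and Fkbp9 at 19.1 CPM in papain + FK506 replicate 2 (next 4 CPM). In AEC1, Fkbp5 was at 196 CPM in papain + FK506 replicate 1 (next 62.1 CPM).

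In basophils, Fkbp3 was at 225.2 CPM in papain + FK506 replicate 7 (next 50.3 CPM) and Fkbp11 at 2.2 CPM in papain + FK506 replicate 8 (all others at 0). In ILC2, all 3 values came from replicate 3. Fkbp10 was at 25 CPM with papain + FK506 (next 12 CPM), Fkbp2 at 289 CPM with papain (next 92 CPM) and Fkbp3 at 225 CPM in untreated mice (next 83 CPM).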

How the results depend on the processing

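Of 121 results recomputed under alternatives, 0 changed direction. They were the counts of members called, the member differences given and the list genes called. A count cannot change direction, and most differences were chosen for a small p or a call. Of 71 list gene results, 19 lost their call under at least 1 alternative. The number of members called between AEC2 and AEC1 (1) was 0 with the replicate block and 0 with both near-identical AEC2 libraries left out (an alternative added after seeing the data), and 0 to 2 with 1 library left out. Under the block 789 genes were called there, against 1248. The replicate numbers were not found to pair libraries: the correlations of deviations of same-numbered libraries were -0.0205 to 0.0174 in AEC1, -0.0102 to 0.447 in AEC2, -0.00636 to 0.0084 between AEC2 and AEC1 and 0.0474 to 0.228 in ILC2, not all above 0.1. In basophils against ILC2, 1 member was called, against 0, when only tables with the basophil file code were used, and 20 to 498 genes were called, against 108, over all alternatives. Against the basophil untreated library, the call of Fkbp4 with papain was lost with a pseudocount of 5 (limma adjusted p = 0.0621) and without papain replicate 5 (0.0768), and that of Fkbp5 with papain + FK506 with a pseudocount of 5 (0.0584). The comparisons that use the basophil untreated library (papain or papain + FK506 against untreated, and basophils against ILC2) were not run without it. The causes were not tested. In AEC, 1 read is worth about 1 CPM. The part of depth in the values of the sparse members was not tested.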
